A study of Mus musculus with 6 samples.

Results

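The acrosome and sperm tail proteins described here were chosen from a list of 42 genes, taken as every probe set (group of short probes that reports 1 transcript) annotated to those symbols or their synonyms. Of the 42, 32 had at least 1 probe set annotated to that gene alone, among 12393 genes measured, through 41 such probe sets. Spag6 was reached through the probe set of Spag6l, for which Spag6 is a synonym. The genes Spaca1, Spaca3, Zpbp2, Izumo1, Spag16, Oaz3, Cabs1, Hook1, Spata18 and Spem1 were not analysed here. Transcripts were read from 6 samples of mouse testis cells with 1 Affymetrix Mouse430A_2 array per sample. All came from Stra8-CD4HAglo transgenic mice, in which a shortened Stra8 promoter drives a human CD4 surface protein in germ cells. In 3 samples, titled spermatogonial stem cells, cells positive for the human CD4 marker were isolated with magnetic beads, and each preparation pooled 50 males. The other 3 were titled total testicular cells, whereas their source text names cells negative for the marker. The age of the mice and the number behind each total testicular sample are not given in the sources used here. The replicates are separate samples by title only, so the p-values measure the spread between these samples. Array medians over all probe sets were 3.25 to 3.44 on the log2 scale. On the first principal component, which held 72.9% of the variance, stem cell array 1 lay at 78.7, apart from stem cell arrays 2 and 3 at 18.8 and 15.3 and from the total testicular arrays at −45.3 to −29.3.

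Spermatids, the haploid germ cells that follow meiosis, build the acrosome, a vesicle over the nucleus whose enzymes and membrane proteins act at fertilisation. They also build a tail around a microtubule axoneme, which is wrapped by outer dense fibres, a fibrous sheath and, in the midpiece, mitochondria. Spermatogonial stem cells precede meiosis and do not carry these structures. Many of the genes are transcribed in spermatocytes or round spermatids and their mRNAs are stored until the protein is needed. CREM, a transcription factor of spermatids, binds the cAMP response element.

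Promoter stretches are shown for 4 of the 9 members whose promoter window held TGACG, a part of the cAMP response element. The 4 were chosen after their values were seen, from members that varied differently across the arrays, described below. Whether a match bears on these values was not tested. Acrbp and Tekt1 were lowest of all 6 arrays on stem cell array 1, as was Spag4, and Spag4 and Tssk6 were highest of all 6 on stem cell array 3. The sequences are from RefSeq on GRCm38.p6, 5′ to 3′ on the gene's strand and upstream of the gene's start. Capitals mark matches to the cAMP response element TGACGTCA or to its part TGACG, on either strand.
Acrbp: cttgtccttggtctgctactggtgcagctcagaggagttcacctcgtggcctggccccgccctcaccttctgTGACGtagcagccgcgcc
Tekt1: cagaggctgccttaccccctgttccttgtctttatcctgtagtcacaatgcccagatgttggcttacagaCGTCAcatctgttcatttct
Spag4: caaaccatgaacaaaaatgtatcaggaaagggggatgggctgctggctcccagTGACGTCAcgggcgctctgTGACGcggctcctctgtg
Tssk6: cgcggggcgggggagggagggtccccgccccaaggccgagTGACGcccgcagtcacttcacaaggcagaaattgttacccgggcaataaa
The Acrbp stretch lies at chr6:125049837-125049926 on the plus strand and the Tekt1 stretch at chr11:72361297-72361386 on the minus strand. The Spag4 stretch lies at chr2:156065123-156065212 and the Tssk6 stretch at chr8:69902071-69902160, both on the plus strand. The nearest match lying wholly upstream of the gene's start began 18 bases before it in Acrbp, 20 in Tekt1, 18 in Spag4 and 73 in Tssk6. Tekt1 also had a window at another start, not shown, where the nearest match began 148 bases upstream. In Spag4 another match, outside the stretch shown, ran across the gene's start. Promoter windows were found for 25 of the 32 members. At least 1 window of 9 of these 25 members held TGACG (36%), beside 23.0% of all 27025 genes with a window. The full element, which contains TGACG, was present in 2 of 25 (Spag4 and Spag6l), beside 2.03% of all genes.

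Acrosome and sperm tail transcripts were abundant in both cell fractions and differed little between them. All 32 members lay above background on all 6 arrays, including the arrays titled spermatogonial stem cells, beside 9790 of all 12393 genes. Background was set at a log2 value of 2.15 from probe sets for bacterial RNA (95th percentile of their means). Only Adam1a had a total testicular mean within 2 log2 units of it, beside 6680 of all 12393 genes. The median member stood at 9.75, 9.57 and 9.74 in total testicular cells and at 8.94, 9.50 and 9.54 in stem cells. For 31 of the 32 members the stem cell mean was the lower one, beside 57.0% of all genes, and over the alternative fits this count ran from 28 to 32. The log2 differences, stem cells minus total testicular cells, ran from −0.64 to 0.05 with a median of −0.26, while the median of all genes was −0.05. In bulk samples, fewer cells of a type and less RNA per cell cannot be told apart.

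No member passed the threshold (limma, Benjamini-Hochberg adjusted p under 0.05 over all probe sets): 0 of 32 rose and 0 fell, where 1.63% of all genes rose and 0.137% fell. The members' adjusted p ran from 0.109 to 0.956. At an unadjusted p under 0.05, 10 members were lower and 0 of the 32 higher, beside 13.1% of all genes lower and 11.8% higher. The groups did not overlap for 12 members, all lower in the stem cell arrays, beside 19.2% of all genes lower and 13.8% higher. For the brightest probe set of each member, the 95% interval of the difference lay below 1 for all 32 and above −1 for 31. The exception was Spam1 with a lower bound of −1.07. Of all 12393 genes, the interval lay below 1 for 11139, above −1 for 11326 and within both bounds for 81.3%. The members' intervals do not cover their dimmer probe sets: those of Spag5 differed by −1.04 and −1.01.

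**Figure D1:**
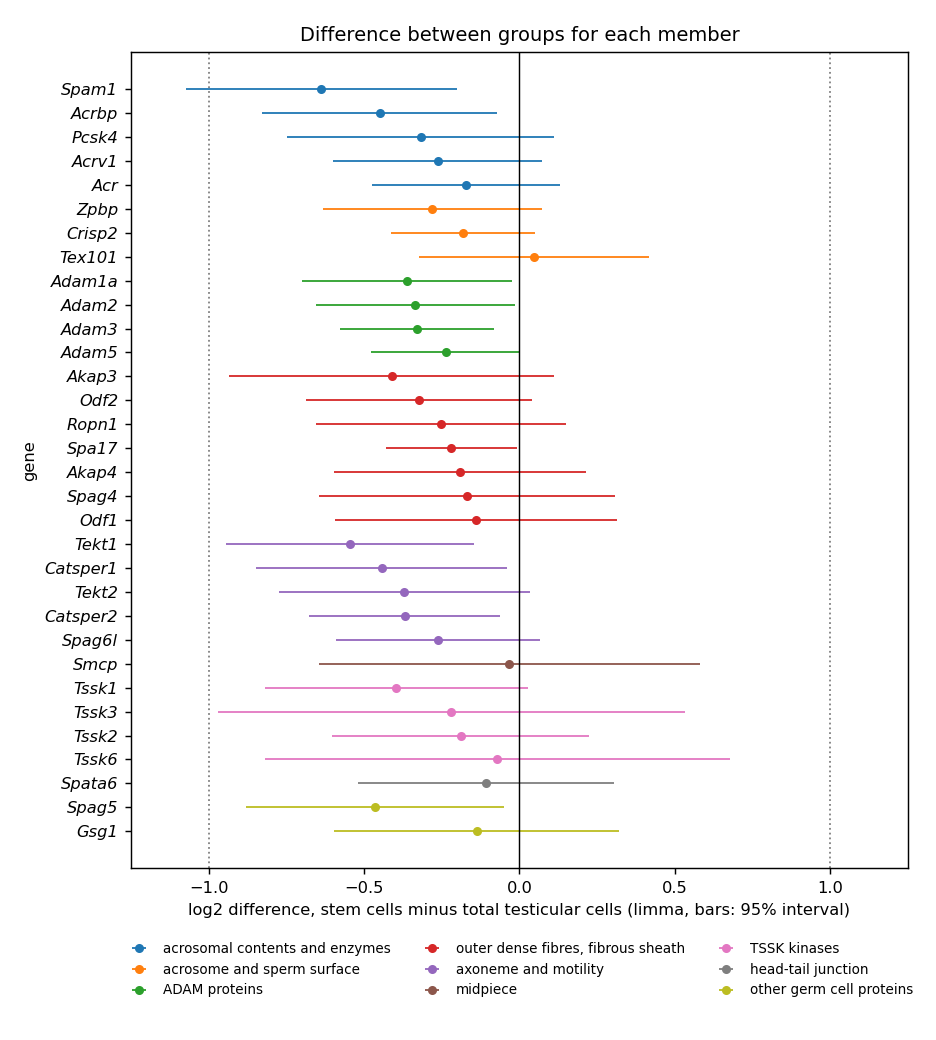
Log2 difference (x axis, stem cells minus total testicular cells) of the 32 members (y axis, coloured by role), with limma's 95% interval as bars and dotted lines at −1 and 1. Points run from −0.64 for Spam1 to 0.05 for Tex101, and among these brightest probe sets the Spam1 interval alone crosses −1.

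Without stem cell replicate 2, 3 members fell, beside 4.25% of all genes: Spam1 (−0.80, adjusted p = 0.0417), Tekt1 (−0.72, adjusted p = 0.0407) and Acrbp (−0.61, adjusted p = 0.0482). Without stem cell replicate 1, the array that stood apart, the median member difference was −0.16 and 29 of 32 remained negative.

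Among the 5 measured genes for acrosomal contents, all 5 were lower in the stem cell arrays (57.0% of all genes), 2 of them at an unadjusted p under 0.05, a level at which 13.1% of all genes were lower. Spam1, the PH-20 hyaluronidase that helps sperm through the cells around the egg, had log2 values of 7.04, 6.99 and 7.01 in total testicular cells against 6.01, 6.69 and 6.43 in stem cells. The groups did not overlap, and stem cell array 1 was lowest. Its difference of −0.64 ± 0.19 (SE, n = 3 per group, limma adjusted p = 0.109) was the most negative of the members. Acrbp, which binds the precursor of acrosin in the acrosome, read 9.16, 9.12 and 8.98 against 8.33, 8.95 and 8.62. These groups did not overlap either (−0.45 ± 0.17 SE, limma adjusted p = 0.157), although stem cell array 2 came within the width of the total testicular range. The other Acrbp probe set gave −0.71, and a probe set shared with Ing4 gave −0.01.

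Acr, the gene of the protease acrosin, read 9.11, 8.84 and 8.93 in total testicular cells against 8.66, 8.92 and 8.78 in stem cells. The groups overlapped, with a difference of −0.17 ± 0.13 (SE, limma adjusted p = 0.466). Acrv1, the acrosomal matrix protein SP-10, read 9.34, 9.32 and 9.28 against 8.76, 9.28 and 9.11. Stem cell array 2 equalled the lowest total testicular value to within rounding, and the difference was −0.26 ± 0.15 (SE, limma adjusted p = 0.312). Pcsk4, a proprotein convertase of germ cells that processes sperm proteins, differed by −0.32 with overlapping groups.

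The 3 measured acrosome membrane and sperm surface genes had a median difference of −0.18. Zpbp, a protein of the acrosome that binds the egg coat, read 9.51, 9.53 and 9.43 against 8.86, 9.37 and 9.39, with no overlap but with stem cell arrays 2 and 3 close below the other group (−0.28, limma adjusted p = 0.306). Tex101, a surface glycoprotein of germ cells needed for the maturation of ADAM3, was the 1 member with a positive difference. It read 8.52, 8.78 and 8.40 against 8.39, 8.85 and 8.60, so the groups overlapped throughout (0.05 ± 0.16 SE, limma adjusted p = 0.892). Its sign turned with median centring, with centring on hybridization controls, with the fluidics round as a block, and without stem cell replicate 2 or total testicular cell replicate 3 (−0.12 at the lowest). Crisp2, a cysteine-rich secretory protein of the acrosome and tail, differed by −0.18.

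The ADAM family are membrane proteins with a disintegrin and a metalloprotease domain, of which some on sperm act in sperm migration and egg binding. All 4 members of this family were lower without overlap between groups, as were 19.2% of all genes. Adam3, the cyritestin gene, read 10.69, 10.57 and 10.76 in total testicular cells against 10.19, 10.41 and 10.43 in stem cells (−0.33 ± 0.11 SE, limma adjusted p = 0.129). Adam2, the beta subunit of fertilin, read 10.08, 10.08 and 9.94 against 9.42, 9.92 and 9.76. Its stem cell array 2 lay just under the lowest total testicular value (−0.34, limma adjusted p = 0.194). Adam5 differed by −0.24, with stem cell values of 9.48 to 9.63 below total testicular values of 9.75 to 9.85. Adam1a, a fertilin alpha gene, was dim at 2.69 to 3.27 over the 6 arrays and differed by −0.36. A brighter probe set shared by Adam1a and Mapkapk5 gave −0.09, so the Adam1a value is uncertain.

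The 5 axoneme and motility genes were all lower, and stem cell array 1 was the lowest stem cell array for each. Tekt1, a tektin filament protein of axonemal microtubules, read 9.43, 9.48 and 9.49 against 8.53, 9.26 and 8.97. Its total testicular values were nearly equal and all 3 stem cell values lay below them (−0.54 ± 0.18 SE, limma adjusted p = 0.124). Catsper1, a pore subunit of the sperm calcium channel, read 6.94 to 7.15 over the 3 total testicular arrays against 6.27, 6.71 and 6.78, again without overlap (−0.44, limma adjusted p = 0.180). Catsper2, another pore subunit, differed by −0.37 without overlap, and the tektin Tekt2 by the same amount with overlap. Spag6l, a protein of the axoneme's central pair, read 9.73, 9.85 and 9.64 against 9.30, 9.77 and 9.37. Stem cell array 2 lay inside the total testicular range (−0.26, limma adjusted p = 0.307).

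**Figure D2:**
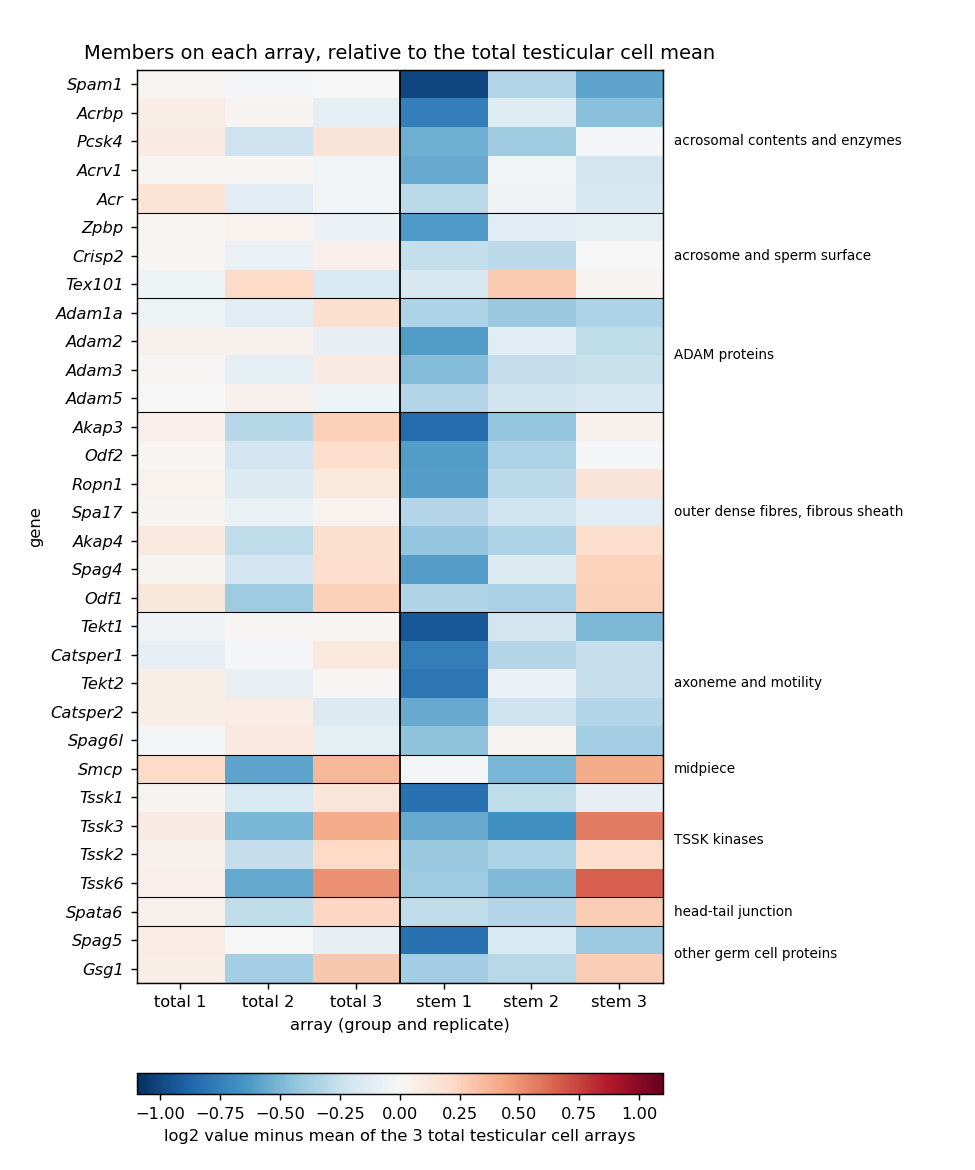
Each member (rows, grouped by role) on each of the 6 arrays (columns) as its log2 value minus the total testicular mean (3 arrays), blue for lower and red for higher. Stem cell array 1 was the lowest stem cell array for 25 of 32 members (78.1%, beside 42.8% of all genes), and the dense fibre, sheath and TSSK rows are lowest on total testicular cell array 2 in their group and highest on stem cell array 3 in theirs.

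Genes of the outer dense fibres, the fibrous sheath and the TSSK kinases varied across the arrays in a further way. For all 7 genes of the fibre and sheath group and all 4 TSSK genes, total testicular cell array 2 was the lowest of its group and stem cell array 3 the highest of its group. That order held for 17 of 32 members (53.1%), for 0 of 5 axoneme genes and for 17.2% of all genes. Among lists read beside the members, it held for 6 of 7 chromatin genes of spermatids and 10 of 26 other tail genes. For other acrosome and fertilisation genes the count was 7 of 21, for meiotic genes 2 of 19 and for myoid genes 5 of 10. The order is thus not particular to the fibre, sheath and TSSK genes. It was read from the same values and is a description. Stem cell array 1 was still the lowest stem cell array for 6 of the 7 fibre and sheath genes and 2 of the 4 TSSK genes. Odf1, the main outer dense fibre protein, read 11.94, 11.42 and 12.07 in total testicular cells against 11.48, 11.46 and 12.08 in stem cells. The spread within each group (SD of 0.34 and 0.35, n = 3) was larger than the difference of −0.14 (limma adjusted p = 0.712). Akap4, the main scaffold of the fibrous sheath, read 11.15, 10.76 and 11.21 against 10.62, 10.70 and 11.24. The groups overlapped, and its 3 probe sets gave −0.25 to −0.19.

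Akap3, an earlier-assembled anchor of the same sheath, had the most negative difference of the fibre and sheath genes (−0.41 ± 0.23 SE, limma adjusted p = 0.310). It read 9.23, 8.87 and 9.44 against 8.33, 8.74 and 9.23, with stem cell array 3 level with total testicular cell array 1. Spa17, which binds protein kinase A anchors in the tail, was the 1 gene of this group without overlap (−0.22, limma adjusted p = 0.199). Odf2, Ropn1 (ropporin) and Spag4, a nuclear envelope protein linked to the tail, differed by −0.32, −0.25 and −0.17, all with overlap. The sign of the Spag4 difference turned without stem cell replicate 1 (0.05).

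The 4 TSSK genes encode serine kinases of spermatids. Tssk6, needed for the shaping of the sperm head, read 10.03, 9.41 and 10.48 in total testicular cells against 9.59, 9.49 and 10.64 in stem cells. Stem cell array 3 was the highest of all 6 and total testicular cell array 2 the lowest, so the groups overlapped fully (−0.07 ± 0.33 SE, limma adjusted p = 0.921). Tssk1, at 9.81, 9.61 and 9.91 against 8.95, 9.50 and 9.69, had the most negative difference of the 4 (−0.40, limma adjusted p = 0.238). Tssk2 and Tssk3 differed by −0.19 and −0.22 with overlap. Tssk1 and Tssk2 are close relatives, so their probe sets may share signal.

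**Figure D3:**
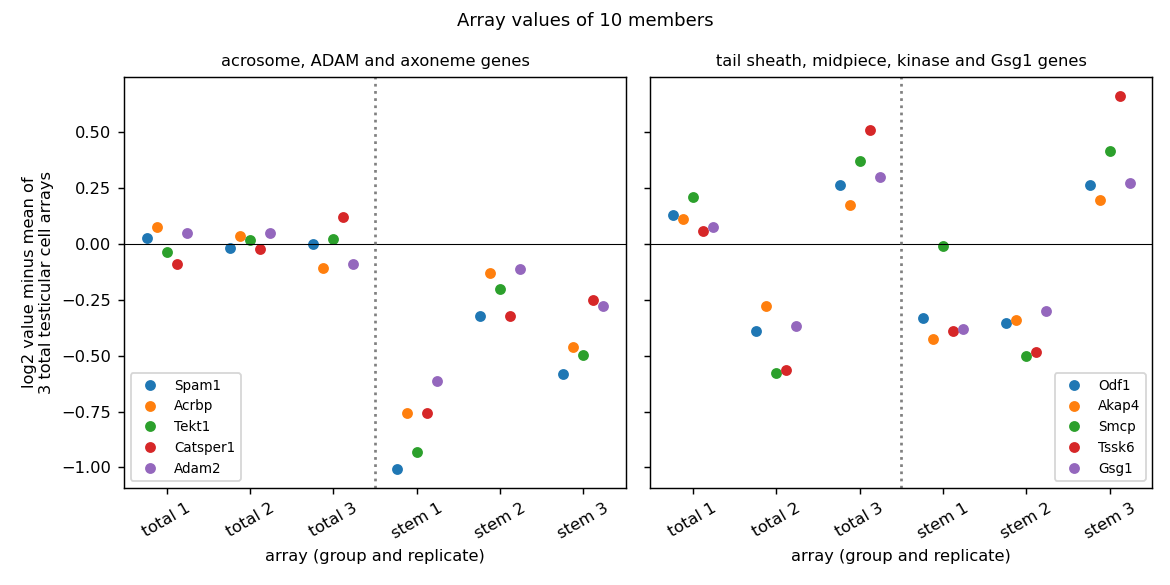
Log2 value minus the total testicular mean (3 arrays) (y axis) on each array (x axis) for 5 members of the acrosome, ADAM and axoneme groups (left) and 5 members of the tail sheath, midpiece, kinase and other groups (right), 1 point per array. On the left every stem cell point lies below 0, and on the right total testicular cell array 2 and stem cell array 2 both lie below 0 while stem cell array 3 lies above it.

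Smcp, a cysteine-rich protein of the mitochondrial capsule in the midpiece, differed by −0.03 ± 0.27 (SE, limma adjusted p = 0.956). Its values were 11.40, 10.61 and 11.56 against 11.18, 10.69 and 11.60, so arrays 2 of both groups were low together. Those arrays shared a fluidics round (arrays with close start times) that held no other array. Whether the round bears on these values was not tested. The sign of the Smcp difference turned with quantile normalization (0.03) and without stem cell replicate 2 (0.20). It also turned without total testicular cell replicate 1 (0.07) or 3 (0.15). Spata6, a protein of the head-tail junction, read 10.98, 10.65 and 11.16 against 10.65, 10.61 and 11.21. Its probe sets gave −0.59 to −0.11, the most negative coming from the dimmest. Gsg1, a germ cell protein that binds a testis poly(A) polymerase, read 11.53, 11.09 and 11.75 against 11.07, 11.15 and 11.73 (−0.14 ± 0.20 SE, limma adjusted p = 0.720).

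Spag5, which carries a sperm antigen name but encodes a mitotic spindle protein, had probe sets that disagreed in size. The brightest read 7.95, 7.88 and 7.78 in total testicular cells against 7.05, 7.70 and 7.47 in stem cells (−0.46 ± 0.18 SE, limma adjusted p = 0.174). The other probe sets gave −1.04 (limma adjusted p = 0.0952) and −1.01 (limma adjusted p = 0.124). On the first of these, stem cell array 1 stood at 5.71 and total testicular cell array 1 at 7.51.

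The members differed between arrays within the stem cell group more than within the other group. The median SD of a member was 0.32 over the stem cell arrays and 0.14 over the total testicular arrays, beside 0.24 and 0.13 for all genes. Relative to the total testicular mean, the median member stood at −0.55, −0.28 and −0.09 on stem cell arrays 1, 2 and 3. All 32 members were below that mean on array 1, 30 on array 2 and 19 on array 3. Of all 12393 genes, 7258, 7435 and 6173 were below it on these arrays. Fluidics rounds were inferred from close start times. Within the rounds that held both groups, the median member difference was −0.58 in round 1, which held stem cell array 1. It was −0.14 in round 3, which held only array 2 of each group. Stem cell array 3 was alone in its round. In a fit with rounds as blocks, stem cell array 3 therefore carried no weight in the group difference. The median difference was then −0.38 and 0 members passed, beside a median of −0.38 without stem cell replicate 3. With the fluidics module (the wash position) as a block, the difference rests on stem cell array 2 against total testicular array 3, the one module that held both groups. The median was then −0.34 and 0 members passed, but single members moved: Acrbp to −0.03, Adam2 to −0.02, Tekt1 to −0.23 and Spam1 to −0.32, against −0.61 for Odf1, −0.87 for Smcp, −0.99 for Tssk6 and −1.08 for Tssk3. Tex101 stood at 0.45, and Spag6l turned sign (0.13).

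Markers of other testis cells moved over the same arrays. Of 25 measured macrophage genes 19 rose and 0 fell, and their median difference was 4.82, 3.46 and 2.82 on stem cell arrays 1, 2 and 3. Their summed signal, on a linear scale, was 1287 to 1361 in total testicular cells and 4384 to 13451 in stem cells, and that of the members was 32509 to 41414 against 27774 to 39475. All 8 measured Leydig cell genes, of the steroid-producing cells, were higher, with 0 past the threshold by limma, 8 at an unadjusted p under 0.05, and medians of 2.72, 1.48 and 0.30 on the 3 arrays; their summed signal was 657 to 1128 against 1254 to 4118. Stem cell array 1 thus had the highest macrophage and Leydig values and the lowest values for most members. The part of these cells in the members' differences was not tested. Of 23 measured markers of undifferentiated spermatogonia 2 rose and 0 fell by limma (median −0.02, range −0.63 to 2.86). At an unadjusted p under 0.05, 4 of them were higher and 2 lower, beside 11.8% of all genes higher and 13.1% lower. On the total testicular arrays, 20 of them were no more than 2 log2 units above background, beside 6680 of all 12393 genes. Median differences were 0.26 for 18 Sertoli, 0.07 for 10 myoid, 0.01 for 10 endothelial, 0.19 for 8 lymphocyte and −0.13 for 4 erythroid genes, of which 2, 0, 0, 1 and 0 rose and none fell by limma, and of which 5, 3, 0, 2 and 0 were higher and 0, 0, 0, 0 and 1 lower at an unadjusted p below that level.

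Other lists of later germ cells were read beside the members. Of 7 measured chromatin genes of spermatids, 0 passed by limma, also 0 at an unadjusted p under 0.05, and the median difference was −0.13. Prm1, a protamine, read 13.13, 13.01 and 13.20 against 12.99, 13.00 and 13.19. Total testicular cell array 2 was the lowest of its group for all 7 of these genes, as it was for the fibre and sheath genes. It was the lowest of its group for 34.0% of all genes. Stem cell array 3 was the highest of its group for 6 of the 7, beside 37.7% of all genes. Of 19 measured meiotic genes, 0 passed by limma, and the median was −0.21. Their unadjusted p was under 0.05 for 9 lower genes and 1 higher gene, beside 13.1% of all genes lower and 11.8% higher.

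Acrosome and tail genes outside the 42 were read in the same fit. Of 92 such genes, 47 were measured; 0 rose and 0 fell by limma, while for 22, all lower, the unadjusted p was under 0.05 (13.1% of all genes). Their median difference was −0.35, and the groups did not overlap for 23 of the 47, all lower (19.2% of all genes). No test compared these genes with the members. The most negative tail gene was Catsperg1, an accessory subunit of the sperm calcium channel (−0.89 ± 0.25 SE, limma adjusted p = 0.0952), and the most positive was Gapdhs, the sperm glycolytic enzyme (0.21, limma adjusted p = 0.724). Of the acrosome and fertilisation genes the most negative was Gopc, a Golgi protein needed to form the acrosome (−0.75, limma adjusted p = 0.150), and the most positive B4galt1, a galactosyltransferase also made by many somatic cells (0.87, limma adjusted p = 0.222). Gapdhs read 10.27, 9.76 and 10.70 against 10.41, 9.83 and 11.12, the order seen for Odf1 and Tssk6, with arrays 2 of both groups lowest. Without stem cell replicate 2, 8 of the 47 fell, beside 4.25% of all genes. On hybridization control centring Catsperg1 fell (−1.06, adjusted p = 0.0319).

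**Figure D4:**
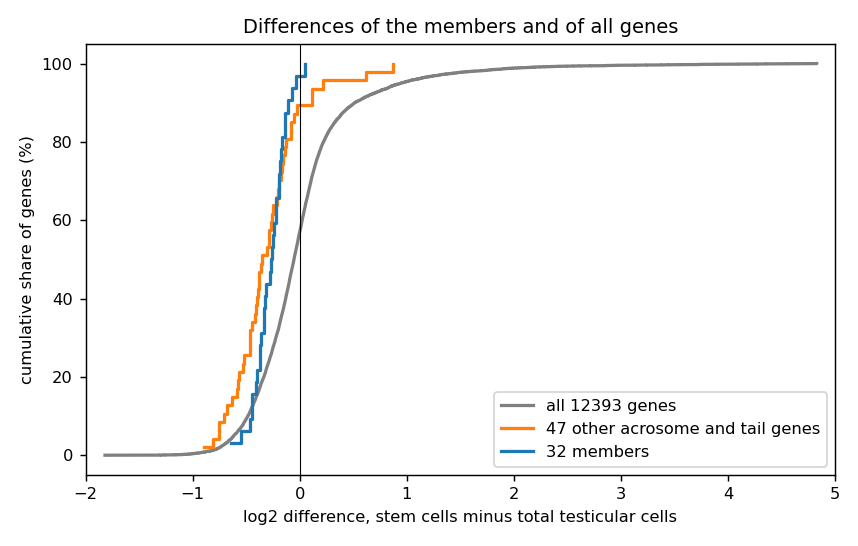
Cumulative share of genes (y axis, percent) with a log2 difference, stem cells minus total testicular cells (x axis), at or below a value, for the 32 members, 47 other acrosome and tail genes and all 12393 genes. The members' curve lies almost wholly below 0, with a median of −0.26 beside −0.05 for all genes, and has none of the long right tail that reaches 4.83 in all genes.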

How the data were processed

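The members and gene lists were chosen with earlier results of these data known. The deposited values are log2 probe set summaries, read as such from their range (1.20 to 13.2). MAS5 and RMA are named, without a version or role, in the submitters' processing notes, so how background and normalization were handled is unknown here. Chip lot, scanner and scan day were common to the 6 arrays, per the file headers. The 3 fluidics rounds were inferred here from start times in the headers. Consecutive starts less than 15 minutes apart were put in the same round.

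The deposited values were used as they stand. Of 22690 probe sets, 64 controls were left out and 22626 tested: 20380 had 1 gene in the annotation, 691 had several and 1555 had no gene. Symbols were updated by gene identifier (GRCm38.p6 table). A gene was represented by whichever of its single-gene probe sets had the highest mean. Background came from 27 bacterial control probe sets. The number of arrays limits the precision.

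The groups were compared with limma 3.58.1 in R 4.3.3 (lmFit, then eBayes with trend, two-sided, threshold 0.05), with 4 degrees of freedom from the arrays and 5.21 from the prior. In simulated arrays, 200 of 22626 probe sets were changed. The share recovered was 50.7% at a log2 size of 1 (67 probe sets), 89.6% at 2 (67) and 100% at 4 (66). Of the unchanged probe sets, 6 were called. On their brightest probe sets the members' differences, −0.64 at the most negative, were smaller than any simulated size. Recovery of differences of that size was not simulated. The dimmer Spag5 probe sets (−1.04 and −1.01) lay just beyond the smallest simulated size. The simulated noise was independent between probe sets and had the same spread in both groups, unlike the real arrays. Alternatives were other scalings, a filter on dim probe sets, blocks, no trend, array weights, the mean of a gene's probe sets and leaving out each array. The fluidics module as a block and the median without Spag5 and Adam1a were chosen after seeing the data.

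Named genes were members past the threshold, the highest and lowest difference in each role group, members whose probe sets differ by over 0.5, and 16 fixed genes, 13 of which were measured. Of the 2 lists of other sperm genes, the largest in each direction were named. Crisp2, Pcsk4, Catsper2, Tekt2, Odf2, Ropn1, Spa17, Spag4, Tssk2 and Tssk3 were named after their values were seen, as were Ing4 and Mapkapk5.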

Additional observations from a re-analysis of the deposited data

How the results depend on the processing

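Across 16 alternative fits the 32 members gave 512 differences. Of these, 3 newly passed the threshold and 19, in 9 members, turned sign, none of them at an unadjusted p under 0.05. The count of members that fell was 0 in the other fits and ran from 0 to 3 when 1 array was left out (3 without stem cell replicate 2). It was 10 at an unadjusted p under 0.05. No member rose in any of these fits. Among the 47 other acrosome and tail genes, the count that fell ran from 0 to 8 when 1 array was left out. It was 1 with hybridization control centring (Catsperg1) and 1 with the replicate block (Rsph1, −0.45, adjusted p = 0.0351). Leaving out 1 array moved the median member difference between −0.38 and −0.16, against −0.26 with all arrays.

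Centring on hybridization controls moved the median of all genes from −0.05 to −0.22, and median centring to −0.16. The members' median moved to −0.43 and −0.37. Both centrings shift every gene alike, so the members' median relative to all genes, −0.21, cannot move under them. It was −0.15 with quantile normalization, −0.13 without stem cell replicate 1, −0.29 with the round block and −0.30 with the module block. Without stem cell replicate 3, which carries no weight under the round block, it was −0.30. Each replicate number holds 1 array of each group, so the replicate block leaves every difference as it was. The median of −0.26 could therefore not move under it. Only the errors could change, and 0 members passed. The filter on dim probe sets and the fit without trend also leave the differences unchanged. Whether replicate numbers pair the samples is not known. Deviations of same-numbered arrays from their group means correlated at −0.01, 0.01 and 0.30 over probe sets. Those of differently numbered arrays correlated at −0.35 to 0.30, so these values do not settle it. Signal close to background limits Adam1a.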
